A study of Mus musculus with 6 samples.

Results

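The genes studied here carry out mitosis and cytokinesis: mitotic cyclins and kinases, spindle motors, the spindle checkpoint, the kinetochore, condensin and the cleavage apparatus. They were followed in MEP, megakaryocyte-erythroid progenitors, marrow cells from which platelet-forming megakaryocytes and red cells descend. A list of 50 genes was chosen by name, and 48 of them had a probe set that the array annotation assigns to that gene alone, out of 22180 genes measured. The mitotic cyclin gene Ccnb1 had no such probe set in the annotation used here, and the condensin gene Ncapg shared its probe set with Lcorl, so neither has a value. Where a gene had several probe sets, the one with the highest mean over the 6 arrays stands for it. Signals are log2 values, so a difference of 1 is a doubling.

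The 2 groups were T-bet knockout and wild-type animals, with 3 arrays each, all on the C57BL/6 background and untreated. T-bet is a transcription factor encoded by Tbx21 and known for its role in T helper 1 and natural killer cells. The labels give neither the knockout allele, the age of the animals nor the antibodies of the sort, and they name each array as a mouse of its own. The comparison asks which transcripts of MEP depend on T-bet.

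Dividing progenitors build up mitotic transcripts by G2, once the DREAM repressor complex of earlier phases has given way to the MYBL2 and FOXM1 activators. The anaphase promoting complex then destroys the cyclins and securin at the exit from mitosis. Red cell progenitors divide in the ordinary way, whereas maturing megakaryocytes enter mitosis, fail to complete cytokinesis and become polyploid.

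The arrays were checked before the genotypes were compared. Of 12 fixed MEP markers 11 were measured, and 8 of these lay above the 90th percentile of probe set brightness, a rank of signal and not an amount of RNA. Markers of B cells, T and NK cells, granulocytes and monocytes, and macrophages ranked lower, with median percentiles of 62.4, 35.9, 37.2 and 42.0. Of these other markers 0 lay above the 90th percentile. Single genes overlapped, since Nkg7 (85.2) and Cd68 (80.6) ranked above the MEP markers Itga2b (67.6) and Nfe2 (71.2). Tbx21 read 6.41, 6.60 and 6.46 in knockout arrays 1 to 3 and 6.54, 6.62 and 6.60 in wild-type arrays 1 to 3. The groups overlapped (difference -0.09, SE 0.09), so this probe set checked no genotype label, and which exons it covers is not known here. Xist, which marks female cells, read 11.79 to 12.21 in 4 arrays and 5.42 and 5.56 in knockout 3 and wild type 3. The mean of the Y-linked genes Eif2s3y and Uty was 8.38 to 9.74 in 5 arrays and 5.09 in wild type 2. Knockout 1, knockout 2 and wild type 1 thus carried both signals, which goes against their description as single mice. The limma p-values below set the genotype difference against the spread between arrays of the same group. With such arrays included, this may not be the spread between single mice.

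The promoters of the members are shown first because many carry an element pair that the choice of genes did not use. The CHR (cell cycle genes homology region) was searched as TTTGAA or TTCGAA and the CCAAT box by its name, both on either strand. The windows reached from 250 bases before to 50 bases after the RefSeq start (GRCm38.p6), 300 bases in all. Windows were found for 40 of the 48 members, 43 windows in all. The CHR letters stood in 34 of them (79.1%), against 19.2% of the 32851 windows of all genes. A CCAAT box stood in 32 (74.4%, against 37.4%), and both in 30 (69.8%, against 7.52%). Further mitosis genes outside the list held the CHR in 58.6% of 58 windows, the box in 62.1% and both in 36.2%. The pair was thus not particular to the members. For G2/M transcription regulators the shares were 30.8%, 46.2% and 23.1% of 26 windows. S phase genes shared the box but seldom the CHR, at 60.5% and 16.3% of their 43 windows. Such matches describe letters in a window and show no binding.

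Below are the last 100 bases before the start site of 7 members with a CHR in that stretch, and of Ccnb2 and Cks2, which had none there. The strand is that of the gene, 5′ to 3′, and capitals mark each CHR and CCAAT box in either orientation.
Cdk1 (chr10:69352913-69353012, minus strand): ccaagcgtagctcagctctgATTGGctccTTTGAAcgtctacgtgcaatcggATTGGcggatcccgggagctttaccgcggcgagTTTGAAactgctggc
Cdc20 (chr4:118437344-118437443, minus strand): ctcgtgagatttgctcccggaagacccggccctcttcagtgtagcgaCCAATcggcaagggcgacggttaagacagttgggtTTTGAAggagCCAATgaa
Ube2c (chr2:164769829-164769928, plus strand): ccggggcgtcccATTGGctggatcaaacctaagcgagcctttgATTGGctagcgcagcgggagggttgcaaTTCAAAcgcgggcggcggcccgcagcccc
Espl1 (chr15:102296193-102296292, plus strand): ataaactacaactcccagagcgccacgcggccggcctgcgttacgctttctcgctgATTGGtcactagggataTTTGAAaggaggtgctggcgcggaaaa
Kif11 (chr19:37376282-37376381, plus strand): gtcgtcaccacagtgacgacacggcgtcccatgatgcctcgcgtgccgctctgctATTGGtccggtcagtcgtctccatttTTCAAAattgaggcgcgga
Prc1 (chr7:80294376-80294475, plus strand): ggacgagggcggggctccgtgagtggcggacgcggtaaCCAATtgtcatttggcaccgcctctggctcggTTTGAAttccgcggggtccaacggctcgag
Top2a (chr11:99024190-99024289, minus strand): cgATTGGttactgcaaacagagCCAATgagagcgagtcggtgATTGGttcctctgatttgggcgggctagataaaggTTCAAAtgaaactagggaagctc
Ccnb2 (chr9:70421555-70421654, minus strand): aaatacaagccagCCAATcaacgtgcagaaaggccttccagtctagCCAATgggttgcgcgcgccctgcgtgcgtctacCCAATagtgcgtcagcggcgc
Cks2 (chr13:51645132-51645231, plus strand): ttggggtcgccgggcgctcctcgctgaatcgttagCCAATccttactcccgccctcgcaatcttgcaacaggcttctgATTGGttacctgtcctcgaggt
In the 7 first stretches the CHR nearest the start began 15 to 30 bases before it. This spacing describes the 7 shown and not the members as a whole. Bub3 and Mki67 also had a CHR in the last 100 bases, but farther from the start. In other members, such as Plk1 and Bub1, the only CHR began after the start, at positions 31 and 15. Prc1 had another window, whose CHR lay nearer the start than the one shown. Each of the 7 stretches held at least 1 CCAAT box in the same 100 bases. Ccnb2 held 3 CCAAT boxes there; in the whole 300 bases it also held 2 CHR matches, outside the stretch shown. The window of Cks2 held no CHR.

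Knockout and wild-type MEP did not differ detectably in any mitosis gene. With limma, 0 of the 48 members passed an adjusted p of 0.05 (background 0.00% of 22180 genes), and the adjusted p of all 48 was 1. At an unadjusted p under 0.05 there were also 0, against 3.13% of all genes (1.44% higher and 1.70% lower in the knockout). Among the 8503 genes between the dimmest and the brightest member the share was 0.659%, so 0 of 48 lay near the share of genes this bright. The median difference, knockout minus wild type, was 0.03 over the members and -0.00 over all genes. Single differences ran from -0.11 for Kif20b and Cdc25b to 0.23 for Ccna2, and 30 of 48 were above 0 (62.5%, against 48.2% of all genes and 54.0% of the 8503 genes between the dimmest and the brightest member). Without knockout 3 the median was -0.03 with 16 differences above 0, without wild type 1 -0.02 with 13, without knockout 2 -0.00 with 24, and without knockout 1 it was 0.10 with 44. The median and the count thus rested on single arrays. In sorted bulk RNA a lower share of dividing cells and less RNA per dividing cell cannot be told apart.

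The arrays also bounded what could have been missed in signal. The 95% interval of the difference lay within 1.5-fold in both directions for all 48 members, against 85.9% of all genes. Of the 8503 genes between the dimmest and the brightest member, 97.2% had such an interval. With replicate number as a block the count was 47 of 48, Pttg1 being the exception. Array signal can understate a change in RNA, so these bounds hold for the signal.

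**Figure D1:**
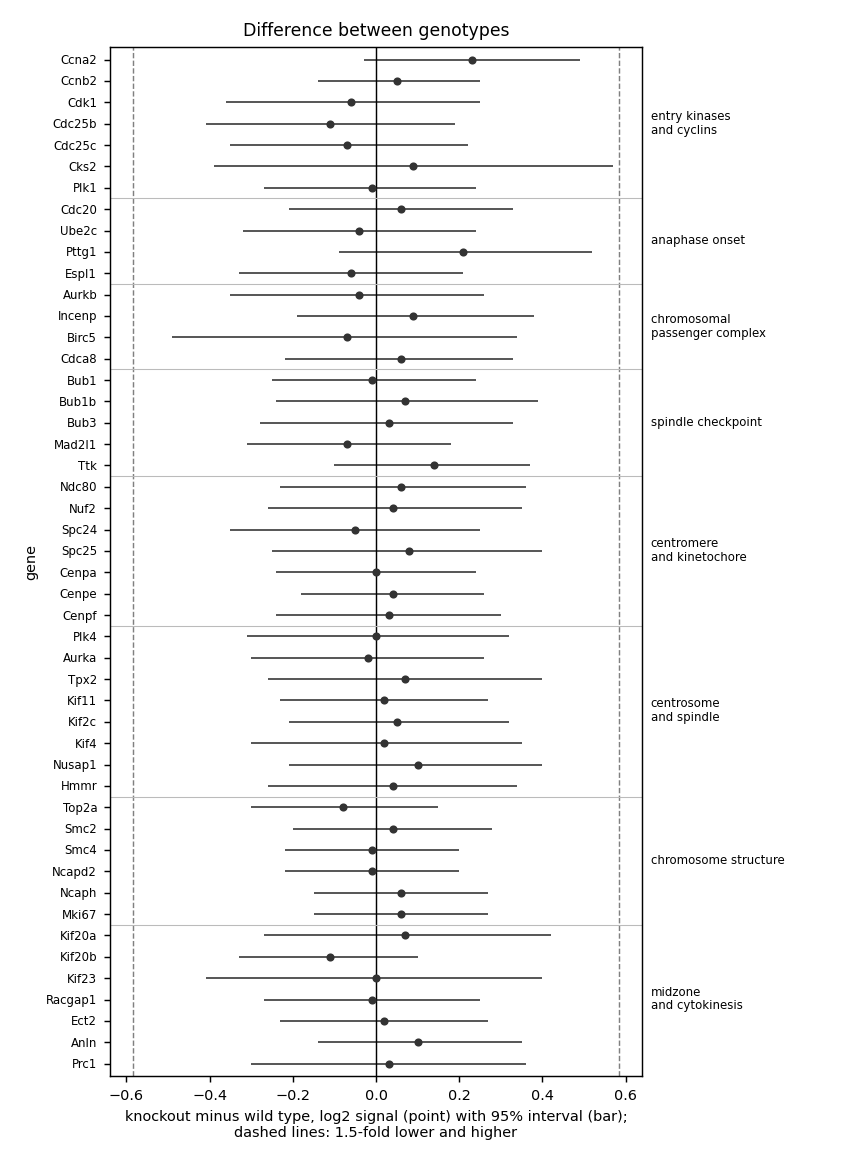
Difference in log2 signal between knockout and wild type (x axis) for each of the 48 genes (y axis), grouped by role; points are differences of the means of 3 arrays and bars are limma's 95% intervals. All bars cross 0 and stay inside the dashed lines at 1.5-fold; Ccna2 sits farthest to the right, at 0.23.

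Among the cyclins and kinases that start mitosis, Ccna2, the cyclin of S phase and G2, had the smallest unadjusted p of all members. It read 11.23, 11.52 and 11.38 in knockout arrays 1 to 3 and 11.08, 11.24 and 11.12 in wild-type arrays 1 to 3. The knockout was higher in each same-numbered pair, but its lowest array lay just below the highest wild-type one. The difference was 0.23 (SE 0.11, 95% interval -0.03 to 0.49, limma unadjusted p = 0.0787, adjusted p = 1; with replicate number as a block unadjusted p = 0.0507, adjusted p = 0.766). Cdk1, the kinase that drives mitotic entry, read 9.54, 9.80 and 9.84 in the knockout and 9.64, 9.95 and 9.77 in the wild type. Plk1, a kinase of entry and spindle formation, read 10.70, 10.93 and 10.90 against 10.77, 10.96 and 10.83. In both genes the groups overlapped throughout, with differences of -0.06 (SE 0.13) and -0.01 (SE 0.11). Cdc25b, a phosphatase that activates CDK1, read 6.99, 7.14 and 7.40 against 7.34, 7.30 and 7.22, a difference of -0.11 (SE 0.13). The order of its wild-type arrays was unlike that of Cdk1, since wild type 1 was the highest of them and not the lowest. The related phosphatase gene Cdc25c differed by -0.07, the CDK-binding subunit gene Cks2 by 0.09 and the mitotic cyclin gene Ccnb2 by 0.05.

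The genes of anaphase onset split evenly in direction. Pttg1 encodes securin, which holds the cohesin-cutting enzyme separase inactive until anaphase. Its signals were 7.84, 7.76 and 7.96 in knockout arrays and 7.75, 7.77 and 7.40 in wild-type arrays. Wild type 3 lay apart below the other 5, and the difference was 0.21 (SE 0.13, limma unadjusted p = 0.144, adjusted p = 1). Without wild type 3 it was 0.10. Espl1, the gene of separase itself, read 8.95, 9.13 and 9.19 against 9.01, 9.25 and 9.18, a difference of -0.06 (SE 0.11). Cdc20, the activator that turns the anaphase promoting complex on, read 10.23, 10.39 and 10.48 against 10.17, 10.41 and 10.34, a difference of 0.06 (SE 0.11). In both, array 1 was the lowest of its group. Ube2c, the ubiquitin-conjugating enzyme that works with this complex, differed by -0.04.

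In the chromosomal passenger complex, which corrects faulty attachments and later marks the cleavage site, 2 of 4 differences were above 0. Aurkb, its kinase, read 10.29, 10.62 and 10.58 in the knockout and 10.42, 10.52 and 10.68 in the wild type. Incenp, its scaffold, read 9.88, 10.16 and 10.13 against 9.81, 10.04 and 10.03. Both genes overlapped between genotypes and had their lowest value of each group in array 1. Their differences were -0.04 (SE 0.13) and 0.09 (SE 0.12). Birc5 (survivin) and Cdca8 (borealin), the other subunits, differed by -0.07 and 0.06.

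The spindle checkpoint delays anaphase until every chromosome is attached. Ttk, the kinase at the head of this checkpoint, read 9.70, 9.88 and 9.84 in knockout arrays and 9.57, 9.74 and 9.70 in wild-type arrays. The knockout was higher by 0.13, 0.14 and 0.13 in the pairs of the same number, while the groups overlapped. The unpaired difference was 0.14 (SE 0.10, limma unadjusted p = 0.214, adjusted p = 1), and with the block the unadjusted p was 0.165. Mad2l1, whose protein binds CDC20 to hold the checkpoint, read 10.55, 10.70 and 10.71 against 10.59, 10.77 and 10.80, lower in each pair and overlapping overall (difference -0.07, SE 0.10). Bub1b, which encodes the BUBR1 subunit of the same inhibitor, read 9.72, 9.98 and 10.04 against 9.67, 9.99 and 9.86. Bub1b differed by 0.07 (SE 0.13), and the checkpoint genes Bub1 and Bub3 by -0.01 and 0.03.

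Centromere and kinetochore genes, which build the microtubule attachment site, had 6 of 7 differences above 0, none larger than 0.08. Ndc80, the subunit that grips the microtubule, read 10.19, 10.45 and 10.51 in the knockout and 10.18, 10.43 and 10.34 in the wild type, a difference of 0.06 (SE 0.12). Arrays 1 of both groups were nearly equal and lay below the other 4. Its partners in the NDC80 complex, Nuf2, Spc24 and Spc25, differed by 0.04, -0.05 and 0.08. Cenpa, the centromeric histone, differed by 0.00, the kinetochore motor gene Cenpe by 0.04 and Cenpf by 0.03.

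Centrosome and spindle genes had 7 of 8 differences above 0. Kif11, the motor that pushes the spindle poles apart, read 11.17, 11.43 and 11.43 against 11.29, 11.35 and 11.34, a difference of 0.02 (SE 0.10) with overlapping groups. Nusap1, a microtubule-binding protein of the spindle, read 10.09, 10.37 and 10.52 against 10.19, 10.23 and 10.28. Its difference of 0.10 (SE 0.13) had the knockout lower in pair 1 and higher in pairs 2 and 3. Aurka, the centrosomal Aurora kinase, differed by -0.02 and Tpx2, which activates it, by 0.07. Plk4, the kinase of centriole duplication, differed by 0.00, the microtubule-depolymerising kinesin gene Kif2c by 0.05, the chromokinesin gene Kif4 by 0.02 and Hmmr by 0.04.

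Chromosome structure genes varied least. Top2a, the topoisomerase that untangles sister chromatids, read 11.52, 11.70 and 11.64 in knockout and 11.65, 11.74 and 11.70 in wild-type arrays. Each pair had the knockout lower, the groups overlapped, and the difference was -0.08 (SE 0.09). Mki67, the proliferation antigen that coats mitotic chromosomes, read 12.25, 12.30 and 12.40 against 12.25, 12.28 and 12.24. Ncaph, a condensin subunit, read 10.27, 10.38 and 10.43 against 10.27, 10.31 and 10.32. Knockout 3 was the highest array for both genes, each at a difference of 0.06 (SE 0.09). The other condensin genes Smc2, Smc4 and Ncapd2 differed by 0.04, -0.01 and -0.01. The median range over the 6 arrays was 0.16 for this role, against 0.32 over all members. The genes of this role were bright, from percentile 94.3 for Ncaph to 99.3 for Mki67, and bright genes ranged less. The median range was 0.21 over genes at or above the 90th percentile, against 0.36 over all genes.

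Midzone and cytokinesis genes act at the step that polyploid megakaryocytes leave unfinished. Ect2, the activator of RhoA at the cleavage site, read 11.28, 11.47 and 11.54 in the knockout and 11.38, 11.35 and 11.50 in the wild type. Anln, the anillin of the contractile ring, read 10.24, 10.52 and 10.42 against 10.26, 10.32 and 10.30. Both overlapped between genotypes, with differences of 0.02 (SE 0.11) and 0.10 (SE 0.10). Kif20b, a kinesin of late cytokinesis, read 9.91, 10.04 and 10.02 against 10.05, 10.13 and 10.14. It was the only member whose groups did not overlap, 1 of 48 or 2.08%, against 8.70% of all genes (3.52% higher and 5.18% lower in the knockout). Among genes in the members' brightness range the share without overlap was 6%. The difference of Kif20b was -0.11 (SE 0.09, limma unadjusted p = 0.238, adjusted p = 1), and the exact permutation p was 0.1, the smallest that 3 arrays against 3 allow. Kif23 and Racgap1, which together form centralspindlin, differed by -0.00 and -0.01, the bundling protein gene Prc1 by 0.03 and Kif20a by 0.07.

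**Figure D2:**
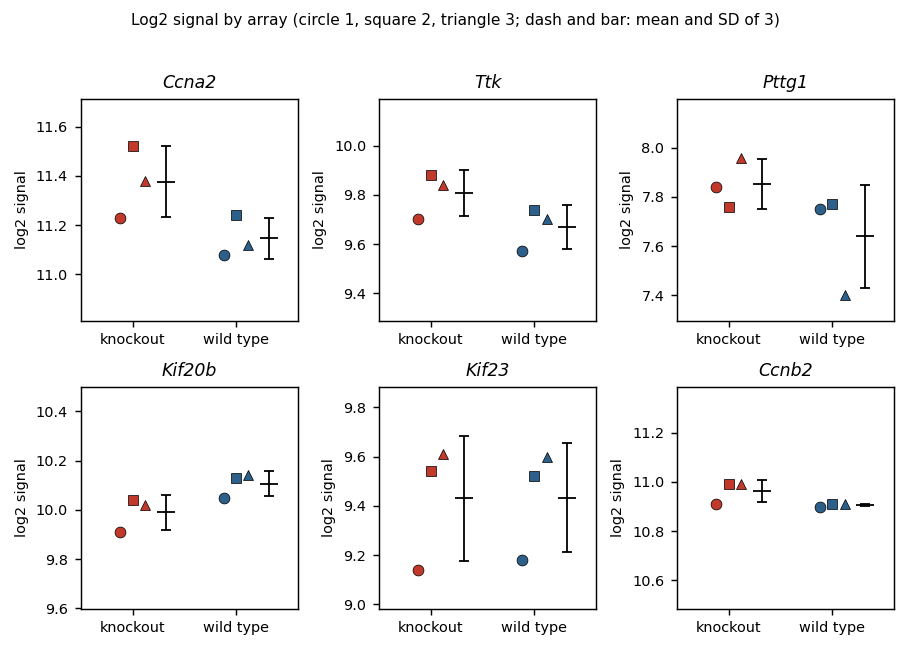
Log2 signal (y axis; each panel spans 0.9 units) of 6 genes in knockout (red) and wild-type (blue) arrays; circles, squares and triangles are arrays 1, 2 and 3, and the dash with a bar is the mean ± SD of 3 arrays. Ccna2 and Ttk are higher in the knockout in each same-numbered pair, Kif20b is lower without overlap, Pttg1 has 1 low wild-type array, and Kif23 drops in both circles.

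What the members shared was their behaviour across arrays of the same genotype. Array 1 of the knockout was the lowest of its group for 45 of 48 members (93.8%, against 39.6% of all genes). Array 1 of the wild type was so for 42 of 48 (87.5%, against 39.8% of all genes). Both held at once for 40 members (83.3%), against 23.0% of all genes. Bright genes as a whole leaned the same way, with 47.8% of the 8503 genes in the members' brightness range and 52.9% of the 2658 genes at or above the 90th percentile. A further quantile normalization, which forces the 6 arrays to 1 distribution, left 35 of 48 members (72.9%) with this order, against 22.8% of all genes and 35.3% of those in the brightness range. Before that step knockout 1 and wild type 1 had the smallest SD over all probe sets, at 2.01 and 2.04. The other arrays had 2.06 to 2.08. The order was noticed in these data, so the counts are a description with no test. The part of dissection, staining, sorting or hybridisation in it was not tested.

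In numbers, the mean deviation of the 48 members from their own 6-array means was -0.15, 0.07 and 0.12 in knockout arrays 1 to 3. In wild-type arrays 1 to 3 it was -0.11, 0.06 and 0.01. The 2 arrays numbered 1 were therefore closer to each other than to arrays of their own genotype. The same means over all genes in the brightness range were -0.07, 0.02 and 0.06, then -0.05, 0.03 and 0.01, a like order with smaller steps. After quantile normalization the members read -0.10, 0.05 and 0.08 in the knockout and -0.09, 0.03 and 0.02 in the wild type.

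Kif23, the motor of centralspindlin, showed the pattern most plainly among those singled out after their values were seen. It read 9.14, 9.54 and 9.61 in knockout arrays and 9.18, 9.52 and 9.60 in wild-type arrays, so same-numbered arrays differed by -0.04, 0.01 and 0.01 while the 6 arrays ranged over 0.47. Birc5, the survivin gene, read 8.87, 9.29 and 9.44 against 9.08, 9.41 and 9.34. Cks2 read 11.02, 11.39 and 11.67 against 11.00, 11.50 and 11.30, the widest range of any member, 0.67. Of its 4 probe sets 3 held identical values, and the fourth, which is dimmer, gave a difference of -0.12 in place of 0.09. At the other end Ccnb2 hardly moved, at 10.91, 10.99 and 10.99 against 10.90, 10.91 and 10.91, a range of 0.09. The median range was 0.32 over the members and 0.27 over genes of their brightness range.

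The 8 members that broke the order were Cdc25b, Pttg1, Cdca8, Cenpe, Smc4, Ncapd2, Mki67 and Ect2. Cdc25b and Pttg1 were the 2 in which wild type 1 lay above the mean of wild type 2 and 3, by 0.08 and 0.16. By role, all 8 centrosome and spindle genes and all 5 checkpoint genes kept the order, as did 6 of 7 kinetochore genes, 6 of 7 cytokinesis genes and 6 of 7 entry genes. Anaphase and passenger complex genes kept it in 3 of 4 each, and chromosome structure genes in 3 of 6. Among members with a CHR match in a RefSeq window, 26 of 31 kept it, and 7 of 9 among those without.

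**Figure D3:**
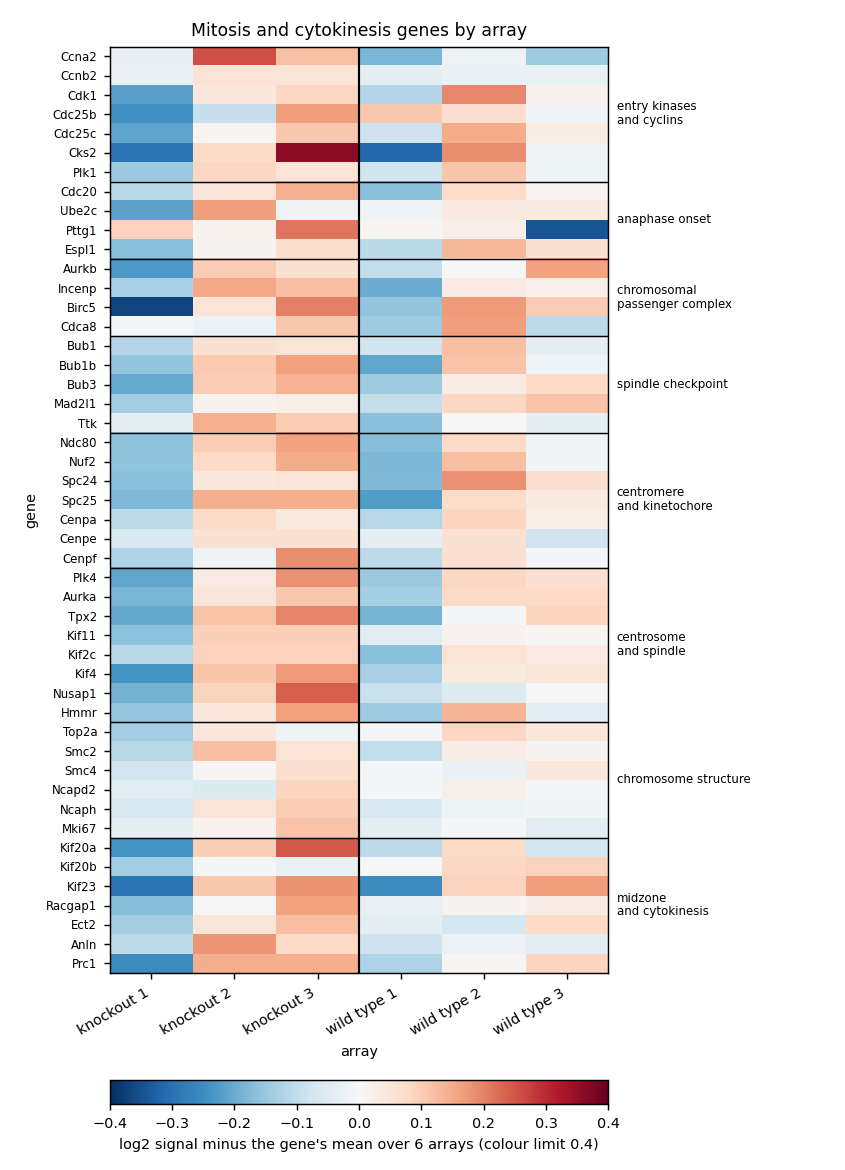
Log2 signal minus the gene's mean over 6 arrays (colour, red above and blue below, limits at 0.4) for 48 genes (rows, grouped by role) in the 6 arrays (columns, knockout left of the line). The columns knockout 1 and wild type 1 are blue for most genes; 40 of 48 genes have both as the lowest array of their group, and Pttg1 and Cdc25b stand out from the pattern.

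Same-numbered arrays were next compared within pairs. The members were higher in the knockout for 17 of 48 in pair 1, 24 in pair 2 and 42 in pair 3, with medians of -0.04, 0.00 and 0.10. All genes gave 49.1%, 47.7% and 49.3%, and genes of the brightness range 40.3%, 47.6% and 66.2%, against 87.5% of the members in pair 3. The 9 members higher in every pair were Ccna2, Ccnb2, Incenp, Ttk, Ndc80, Spc25, Kif2c, Ncaph and Mki67 (background 12.4% of all genes). Mad2l1, Top2a and Kif20b were lower in every pair (background 14.2%). Blocking on the number made the SE smaller for 42 of 48 members (87.5%), against 70.4% of all genes and 77% of genes of the brightness range. The blocked fit called 0 of the members at an unadjusted p under 0.05 (background 3.63%, with 1.89% higher and 1.74% lower). In the brightness range it called 1% of genes.

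Wider lists of the cell division programme were then described by genotype and by array. Of 60 further mitosis genes, among them kinesins, centromere proteins and spindle regulators, 0 had an unadjusted p under 0.05. The share was 3.13% over all genes and 0.659% over genes in the members' brightness range. The median difference of the 60 was 0.01. Their smallest p-values belonged to Depdc1a, the spindle attachment gene Ska3 and the kinase gene Mastl, which differed by 0.16 (SE 0.12), 0.21 (SE 0.17) and 0.14 (SE 0.12). Array 1 was lowest in both groups for 43 of the 60 (71.7%). S phase genes had this order in 32 of 44 (72.7%), with a median difference of 0.02 and Gins3, Pole and Ung at 0.18, -0.14 and 0.21. Of 20 G2/M transcription regulators 17 were above 0 (85%, against 48.2% of all genes and 54% of genes in the members' brightness range). Their median was 0.04, and 12 had the order (60.0%). By pair the knockout was higher for 11, 12 and 18 of the 20, so the count leaned on pair 3. Lin9, a subunit shared by DREAM and the MYBL2 complex, differed by 0.14 (SE 0.11), and E2f4 and E2f7 by 0.10 and -0.07.

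Subunits of the anaphase promoting complex had a median difference of -0.03 over 14 genes, led by Anapc11 at -0.11, Anapc2 at -0.08 and Anapc13 at -0.07. The cohesin genes had a median of 0.02 over 10 genes, with Rad21, the subunit that separase cuts, at 0.09, Smc1a at 0.06 and Stag1 at -0.06. The order with array 1 lowest held for 7 of 14 subunits of the complex and 5 of 10 cohesin genes. Genes tied to endomitosis had a median of 0.04 over 11 genes, with Ccne1, the E-type cyclin needed for repeated S phases, at 0.11, the licensing factor gene Cdt1 at 0.09 and Rhoa at 0.08. It held for 5 of 11 endomitosis genes. These shares of 50%, 50% and 45.5% lie near the 47.8% of genes in the members' brightness range, against 23.0% of all genes. In each of these 3 lists 0 genes had an unadjusted p under 0.05.

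**Figure D4:**
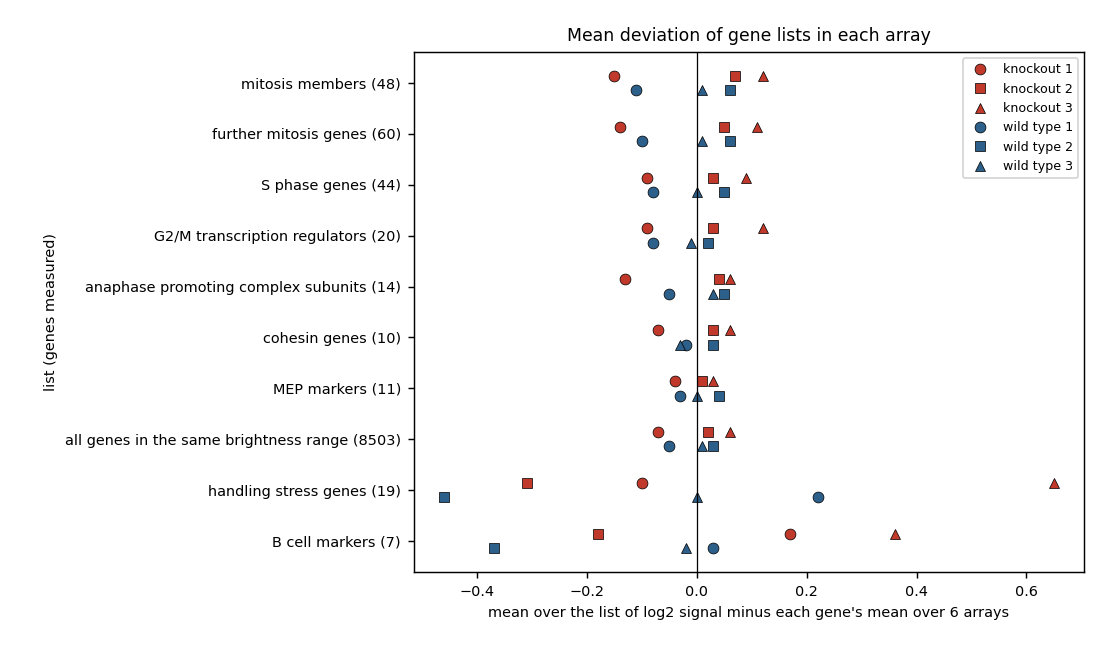
Mean over each list of log2 signal minus the gene's own mean over 6 arrays (x axis) for 10 gene lists (y axis, with the number of genes measured); circles, squares and triangles are arrays 1, 2 and 3, red for knockout and blue for wild type. Both circles lie left of the other arrays for the mitosis members, the further mitosis genes and S phase genes. The same holds for G2/M transcription regulators, anaphase promoting complex subunits, MEP markers and all genes in the members' brightness range. It does not hold for cohesin genes, handling stress genes or B cell markers.

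Markers of other cells and of handling were set beside this pattern. Genes of the immediate early and heat shock response had mean deviations of -0.10, -0.31 and 0.65 in knockout arrays 1 to 3 and 0.22, -0.46 and -0.00 in wild-type arrays 1 to 3. Their highest array, knockout 3, was also the highest for the mitosis members, and their lowest, wild type 2, was the highest wild-type array for the members. B cell markers were measured for 7 of 8 genes, with a mean level of 6.46 to 6.99 in knockout and 6.26 to 6.66 in wild-type arrays. Knockout 3 was again the highest of these, as it was for 9 granulocyte and monocyte markers, which ranged from 5.76 to 6.21 in the knockout and 5.77 to 5.97 in the wild type. T and NK markers ranged from 6.12 to 6.30 and 6.17 to 6.24, and macrophage markers from 6.24 to 6.48 and 6.40 to 6.49. MEP markers ranged from 10.34 to 10.41 and from 10.36 to 10.42. Megakaryocyte markers, 5 of 6 measured, ranged from 6.96 to 7.36 and 7.19 to 7.48, and 2 of 6 erythroblast markers from 7.72 to 8.08 and 7.75 to 7.92. Their part in the mitosis values was not tested. By limma, 1 of 11 MEP markers (Itga2b, -0.34, SE 0.14) and 1 of 19 stress genes (Hspa1a, 1.66, SE 0.66) had an unadjusted p under 0.05. Of the B cell, T and NK, granulocyte and monocyte, macrophage, erythroblast and megakaryocyte markers 0 did. The share over all genes was 3.13%, with 1.44% higher and 1.70% lower in the knockout. With the replicate block 3 of 7 B cell markers were higher at that threshold (1.89% of all genes), and 1 of 5 megakaryocyte markers and 1 of 11 MEP markers were lower (1.74% of all genes).

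Of the members, 5 lie on chromosome 11 with Tbx21: Pttg1, Aurkb, Birc5, Hmmr and Top2a. Top2a is the nearest, with 58 protein-coding genes between it and Tbx21 in RefSeq. DNA of another strain can remain around a targeted gene, and its part in the value of Top2a (-0.08) was not tested.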

How the data were processed

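The values the authors deposited are log2 signals of 41345 probe sets on each array, the base being inferred from their range. Per the submitters' processing notes, the software was Affymetrix Expression Console 1.4.1.46. The sources used here do not say how background was corrected or how signals were normalized and summarised. Scanner intensities and detection calls were not used here. Group and replicate number come from the sample titles. Names came from the array annotation (23521 probe sets with 1 symbol), updated by gene ID through RefSeq (GRCm38.p6). All probe sets were fitted with limma 3.58.1 (lmFit, eBayes) in R 4.3.3, with Benjamini-Hochberg adjustment over all 41345, and the fit was tested on simulated data. SE and 95% intervals are limma's. Only the rows of the members are read from the fit; the 8 role groups and further lists are hand-made. The members, lists and rules were chosen with earlier results of these data known. The rule for array-by-array values took the 12 members of smallest p and 12 measured anchor genes, 3 of which were also among the 12; Kif23, Birc5, Cks2 and Ccnb2 were added with their values in view. Permutation tests were 2-sided and exact.

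Same-numbered arrays were checked for pairing, since the labels number both groups 1 to 3. Deviations from the group means over 22180 genes correlated at 0.285, 0.116 and 0.115 for numbers 1, 2 and 3, each above the criterion of 0.1. The numbers were therefore taken to pair the arrays, from the data alone. Between arrays of unlike number the correlations ran from -0.198 to 0.095. Knockout 3 with wild type 2, at 0.095, fell just short of the criterion. The pairing of numbers 2 and 3 thus rests on a narrow margin. Both arrays numbered 1 carried Xist and Y-linked signal, and both numbered 3 carried Y-linked signal with low Xist. Both numbered 2 carried Xist, with Y-linked signal in knockout 2 alone. Xist and the Y-linked genes were among the 22180, and their part in the correlations was not tested. The number enters only the replicate block and the passages that say so. Alternatives are given in the closing section.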

Additional observations from a re-analysis of the deposited data

How the results depend on the processing

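No member passed an adjusted p of 0.05 by limma under any alternative, nor 0.1 where that threshold was tried. The count at an unadjusted p under 0.05 was 0 in the reported fit and 1, Ccna2, with a further quantile normalization, array weights, limma-trend and without knockout 1. With the replicate block, which pairs same-numbered arrays, the median of the members was 0.03 and no difference changed sign, since the block leaves the means as they are. Ccna2, Pttg1, Ttk and Kif20b kept their sign under every alternative. Of the 48 members 35 changed sign under at least 1, none of them larger than 0.11 in size as reported, and the cause was not tested. Turned differences with quantile normalization: Smc4 0.0027. With array weights they were Plk1 0.021, Ube2c 0.042, Aurkb 0.005, Bub1 0.02, Aurka 0.00047, Smc4 0.00014, Kif23 0.03 and Racgap1 0.0026. Blocking on the class of Xist and Y-linked signal gave Cdk1 0.049, Cdc25c 0.021, Plk1 0.05, Espl1 0.024, Birc5 0.043, Bub1 0.066, Spc24 0.058, Aurka 0.049, Ncapd2 0.014, Kif23 0.097 and Racgap1 0.02. The next 2 alternatives were chosen after seeing the data. Without both arrays numbered 1 they were Cdc25b 0.007, Plk1 0.015, Ube2c 0.043, Bub1 0.012, Cenpa -0.00085, Smc4 0.026, Ncapd2 0.0076, Kif23 0.012 and Racgap1 0.062. Without the 3 arrays with both Xist and Y-linked signal they were Cdc25b 0.14, Cdc25c 0.023, Birc5 0.069, Bub1 0.0054, Cenpa -0.019, Aurka 0.029, Smc4 0.055, Ncapd2 0.075, Kif23 0.047 and Racgap1 0.14. Leaving out 1 array at a time gave these ranges: Cdk1 -0.13 to 0.036, Cdc25c -0.14 to 0.025, Plk1 -0.06 to 0.056, Ube2c -0.13 to 0.058, Espl1 -0.13 to 0.014, Aurkb -0.1 to 0.061, Birc5 -0.19 to 0.092, Bub1 -0.05 to 0.056, Spc24 -0.15 to 0.029, Aurka -0.09 to 0.067, Smc4 -0.04 to 0.03, Ncapd2 -0.05 to 0.015, Kif23 -0.13 to 0.14, Racgap1 -0.09 to 0.076, Bub3 -0.04 to 0.13, Cenpa -0.054 to 0.06, Plk4 -0.087 to 0.11, Kif11 -0.027 to 0.1, Kif4 -0.055 to 0.15, Smc2 -0.0077 to 0.11, Prc1 -0.039 to 0.16, Cks2 -0.062 to 0.26, Ndc80 -0.0028 to 0.16, Nuf2 -0.034 to 0.14, Cenpf -0.05 to 0.1, Tpx2 -0.012 to 0.19, Hmmr -0.032 to 0.13, Kif20a -0.031 to 0.21, Ect2 -0.036 to 0.1, Cdc20 -0.0086 to 0.13, Cdca8 -0.0022 to 0.15, Bub1b -0.012 to 0.17, Spc25 -0.016 to 0.18 and Kif2c -0.015 to 0.12.

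With 3 arrays per group the exact permutation p cannot go below 0.1. Members were bright, none in the lowest 30% of probe sets, and the number of arrays limits the precision.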
